A study of Mus musculus with 6 samples.

Results

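The 10 genes described here are small nucleolar RNA (snoRNA) host genes other than *Snhg11*: *Gas5*, *Snhg1*, *Snhg3*, *Snhg5*, *Snhg6*, *Snhg8*, *Snhg12*, *Snhg14*, *Snhg17* and *Snhg20*. They were taken as a fixed list of symbols, matched through GENCODE mouse M21 to Ensembl identifiers, and are 10 of the 55401 genes counted. All 10 passed the filter on low counts that left 19969 genes for testing. RNA was sequenced from the dorsal hippocampus of 6 wild-type (WT) mice, of which 3 had received Control-ASO and the other 3 Snhg11-ASO. An ASO is an antisense oligonucleotide, a short modified DNA-like strand that pairs with an RNA and leads RNase H to cut it, and the Control-ASO had the same bases in scrambled order. By the study's methods, the mice were 4-month-old WT littermates of the Ts65Dn line, a mixed background rather than an inbred strain, and received 50 μg per hemisphere into the dorsal dentate gyrus. Tissue was taken 3 days later, so each library holds all cells of the dorsal hippocampus and not the injected region alone, and the study describes the mice of its knockdown check, whose RNA was also sequenced, as male.

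snoRNAs guide chemical modification of other RNAs. Box C/D snoRNAs direct 2′-O-methylation and box H/ACA snoRNAs pseudouridylation, mostly of ribosomal RNA. In mammals most are cut from the introns of host genes after splicing, so that a host gene gives rise to a spliced RNA and to snoRNAs at the same time. The spliced RNA of many small hosts carries no long reading frame and is degraded by nonsense-mediated decay when it is translated. *Snhg14* differs from the rest. It is a very long imprinted gene, transcribed from the paternal copy in neurons, that holds arrays of brain-enriched snoRNA copies and runs into the antisense strand of *Ube3a*.

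The libraries held 28951250 to 43997537 reverse-strand counts on genes, and values are given as CPM, counts relative to the library total, adjusted with TMM factors. Values of a group are listed in the order of replicates 1, 2 and 3. *Snhg11*, the targeted gene, stood at 551, 436 and 209 CPM under Control-ASO against 139, 65.4 and 69.4 CPM under Snhg11-ASO, with no overlap. Markers of dentate granule cells were present in all libraries, with a summed level of 237 to 283 CPM in Control-ASO and 245 to 315 CPM in Snhg11-ASO. The libraries were unequal in their makeup. The summed level of 6 choroid plexus markers ran from 36.2 to 1890 CPM over the Control-ASO libraries and from 67.8 to 1294 CPM over the Snhg11-ASO libraries. The summed level of 5 microglia markers was 74.6 CPM in Snhg11-ASO replicate 1 and 160 to 278 CPM in the other libraries. The summed level of 5 markers of other myeloid and blood cells was 46.0 to 56.1 CPM in Control-ASO and 63.7 to 72.3 CPM in Snhg11-ASO, without overlap. Of these 5 markers only *Cd68* had groups without overlap on its own. Snhg11-ASO replicate 1 stood apart more widely: of the 6 libraries it was the highest in 33.3% and the lowest in 32.5% of all genes tested, and values without it are given beside many of the results that rest on it.

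Of the 10 host genes, 8 had a higher mean in Snhg11-ASO and 2 a lower one, where 51.7% of all genes tested were higher and 48.3% lower. The median log2 fold change was 0.20 over the host genes and 0.01 over all genes tested. In edgeR's quasi-likelihood test, Benjamini-Hochberg adjusted over all genes, none of the host genes passed the threshold of 0.05, nor did any of the 19969 genes (0%). At an unadjusted p under 0.05, which 8.11% of all genes reached, there was 1 lower host gene, *Snhg14*, against 4.43% of all genes, and there were 0 higher host genes, against 3.68%. *Snhg14* was also the only host gene whose groups did not overlap, in a direction that 7.7% of all genes showed. DESeq2 called 0 of the 10 host genes, and 258 of the 17966 genes to which it gave an adjusted p (1.44%). An exact permutation test of 3 against 3 libraries cannot give a two-sided p below 0.1.

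The higher means rested wholly or in part on 1 library. Snhg11-ASO replicate 1 had the highest level of the 6 libraries in 9 of the 10 host genes, all but *Snhg14*. Without it 4 of the 10 were higher in Snhg11-ASO, where 8 had been. The part that the makeup of this library plays in these values was not tested.

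**Figure D1:**
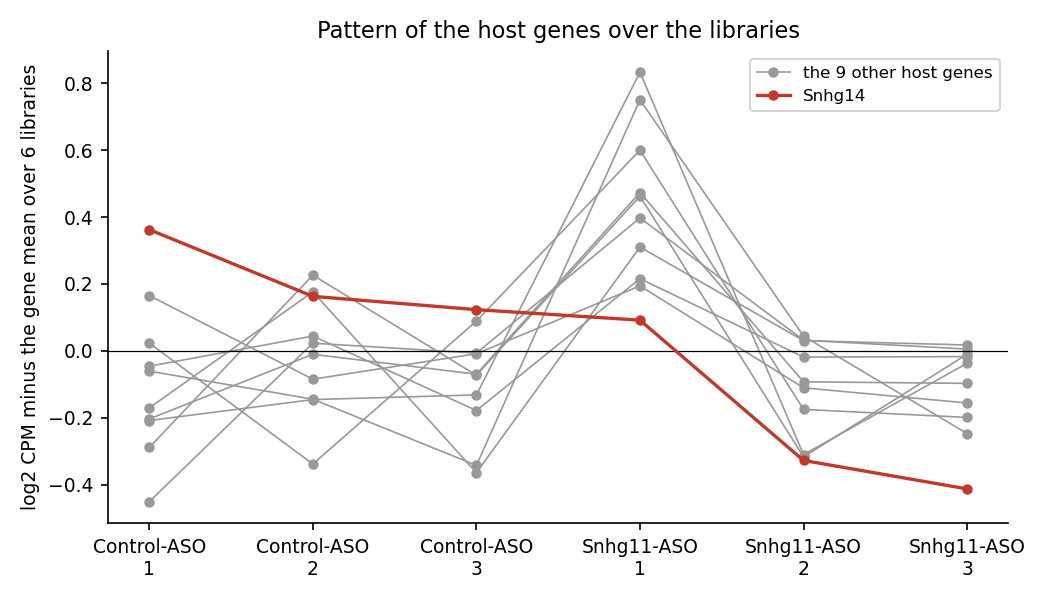
log2 CPM of each host gene minus its mean over the 6 libraries (y axis), by library (x axis), with 1 line for each gene and *Snhg14* in red. In Snhg11-ASO replicate 1 the 9 other genes lie at their highest point, while *Snhg14* lies above 0 in the 3 Control-ASO libraries and below 0 in Snhg11-ASO replicates 2 and 3.

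*Snhg14* (ENSMUSG00000100826) lies on the minus strand of chromosome 7 of GRCm38, from 59307924 to 59975759, and spans 667836 bp, of which 26093 bp (3.91%) are annotated exon. Its level was 475, 414 and 403 CPM under Control-ASO and 394, 295 and 278 CPM under Snhg11-ASO. All 3 Snhg11-ASO libraries were below all 3 Control-ASO libraries, replicate 1 by a narrow margin and the other two by a wide one. The mean was 431 ± 39.1 CPM (SD, n = 3) in Control-ASO and 322 ± 62.8 CPM (SD, n = 3) in Snhg11-ASO, or 74.8% of the Control-ASO mean. The log2 fold change was -0.42 (SE 0.15, 95% interval -0.78 to -0.05), with p = 0.0298 and adjusted p = 0.573 in edgeR's quasi-likelihood test, and p = 0.1 in the two-sided exact permutation test. In bulk tissue, fewer cells of a type and less RNA per cell cannot be told apart. The summed level of the 3 neuron markers *Rbfox3*, *Snap25* and *Syt1* was also lower, at 1931 to 2161 CPM in Control-ASO and 1691 to 1859 CPM in Snhg11-ASO, without overlap. Of these 3 markers only *Syt1* had groups without overlap on its own. The summed level of 3 markers of CA pyramidal cells was 246 to 348 CPM in Control-ASO and 215 to 357 CPM in Snhg11-ASO, with overlap. The summed dentate granule cell markers given above overlapped too. The part of neuron content in the level of *Snhg14* was not tested.

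The *Snhg14* difference moved with the libraries included and with a correction for gene length. Without Snhg11-ASO replicate 1 the log2 fold change was -0.59, with an adjusted p of 0.24 in edgeR's quasi-likelihood test and of 2.6e-05 in DESeq2, which then called it. Without Control-ASO replicate 1 or 2, or Snhg11-ASO replicate 2 or 3, the unadjusted p in edgeR's quasi-likelihood test was 0.081, 0.0503, 0.0941 and 0.0918, in that order. After each library's trend with genomic span had been removed the log2 fold change was -0.12, with an adjusted p of 0.858 in the same test.

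Genomic span here means the whole length of a gene on the chromosome, introns included. Genes of long span were lower in Snhg11-ASO as a class. Of 291 genes tested that span 400 to 1000 kb, *Snhg14* among them, 85.6% had a negative log2 fold change, 34.7% were lower at an unadjusted p under 0.05, and the median was -0.24. Of these 291 genes, 29.2% had a log2 fold change below that of *Snhg14*. Among the 57 genes of 1000 kb or more, 94.7% were lower, with a median of -0.48. Among the 7621 genes under 10 kb, where the 9 other host genes belong, 50.5% were lower and the median was -0.0038. A lower level was thus common among genes as long as *Snhg14*.

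**Figure D2:**
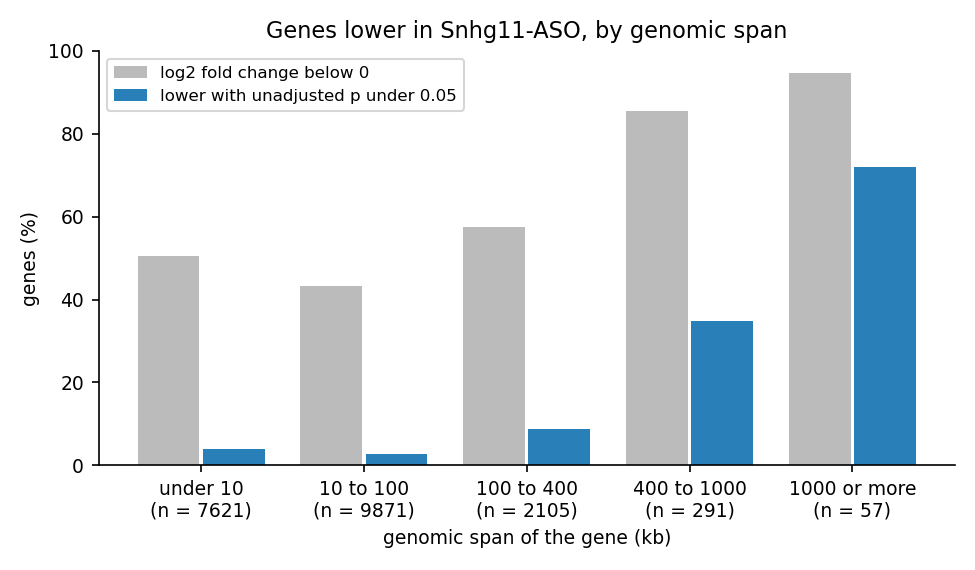
Share of genes tested (y axis, %) that had a log2 fold change below 0 (grey) or were lower with an unadjusted p under 0.05 (blue), by genomic span in kb (x axis, number of genes in brackets). The grey bars reach 85.6% for 400 to 1000 kb and 94.7% for 1000 kb or more, and lie at 50.5% under 10 kb.

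Of the well-counted genes at *Snhg14*, *Snrpn* and *Ube3a* gave log2 fold changes close to 0. Gm38393, a protein-coding gene that overlaps the start of *Snhg14* on the same strand, held 2546 to 4233 counts a library. Its change is not described here. *Snrpn*, which encodes a small nuclear ribonucleoprotein and starts upstream on the same strand, was counted at 130, 150 and 141 CPM in Control-ASO and at 147, 133 and 132 CPM in Snhg11-ASO, with overlapping groups and a log2 fold change of -0.03 (95% interval -0.25 to 0.19). *Ube3a*, the ubiquitin ligase gene that *Snhg14* overlaps in antisense, was at 227, 225 and 243 CPM in Control-ASO and at 230, 239 and 227 CPM in Snhg11-ASO. Its log2 fold change was 0.0027 (95% interval -0.19 to 0.19), and its groups overlapped. Of the 8 listed genes of the locus 6 were tested, 3 lower and 3 higher, with 0 at an unadjusted p under 0.05. *Ndn*, also well counted, had a log2 fold change of -0.20 (SE 0.17) with overlapping groups, and of -0.05 without Snhg11-ASO replicate 1. The 3 with the fewest counts had values larger in size than that of *Snhg14* and wide errors, -0.97 (SE 0.65) for *Magel2*, 0.76 (SE 0.60) for *Peg12* and 0.64 (SE 0.55) for *Mkrn3*, each with overlapping groups. *Atp10a*, the nearest protein-coding gene on the other side, lies 478504 bp away. It was at 13.0, 9.75 and 14.8 CPM in Control-ASO and at 8.21, 9.04 and 10.1 CPM in Snhg11-ASO. Its groups overlapped through Control-ASO replicate 2, and its log2 fold change of -0.46 was about as large as that of *Snhg14* and likewise had an unadjusted p under 0.05 (adjusted p = 0.601 in edgeR's quasi-likelihood test).

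Inside *Snhg14*, on its strand, the annotation holds 208 snoRNA genes. By position and length 137 form the array next to *Ube3a*, here called the Snord115 array (69 to 88 nt), and 70 form the Snord116 array (92 to 94 nt), with Gm22373 apart from both. The copies are repeated: the 137 copies have 57 distinct sequences and the 70 copies 27. The sequences below, from GENCODE M21 on GRCm38, are the commonest sequence of each array, the 4 best counted copies of the Snord115 array, the named copy Snord116l12, Gm22373, and Gm26488, whose counts differ between libraries. Capitals mark the letters TGATGA within the first 20 bases (the C box) and CTGA within the last 20 (the D box), the short motifs that bind the box C/D proteins. Copies without capitals near the 5′ end do not hold TGATGA there.
Snord115 array, commonest sequence (33 copies, chr7:59393561-59617690, minus strand): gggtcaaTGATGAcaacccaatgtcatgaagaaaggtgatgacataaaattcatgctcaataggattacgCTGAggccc
Gm24966 (chr7:59344073-59344151, minus strand): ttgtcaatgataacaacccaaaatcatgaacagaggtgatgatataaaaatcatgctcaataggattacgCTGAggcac
Gm22496 (chr7:59347337-59347424, minus strand): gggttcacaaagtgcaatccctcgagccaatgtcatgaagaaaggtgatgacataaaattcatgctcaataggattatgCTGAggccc
Gm25648 (chr7:59347681-59347759, minus strand): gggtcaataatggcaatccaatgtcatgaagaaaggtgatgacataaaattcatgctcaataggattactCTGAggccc
Gm25175 (chr7:59470034-59470112, minus strand): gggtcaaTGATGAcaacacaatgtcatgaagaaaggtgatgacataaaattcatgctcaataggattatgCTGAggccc
Gm26488 (chr7:59355152-59355230, minus strand): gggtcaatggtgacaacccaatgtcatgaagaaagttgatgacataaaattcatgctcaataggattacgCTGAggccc
Snord116 array, commonest sequence (30 copies, chr7:59678509-59902306, minus strand): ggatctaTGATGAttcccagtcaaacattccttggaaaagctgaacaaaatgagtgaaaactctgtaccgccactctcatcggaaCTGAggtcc
Snord116l12 (chr7:59904755-59904848, minus strand): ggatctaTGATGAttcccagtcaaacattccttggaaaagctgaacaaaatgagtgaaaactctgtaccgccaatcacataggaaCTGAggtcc
Gm22373 (chr7:59923034-59923122, minus strand): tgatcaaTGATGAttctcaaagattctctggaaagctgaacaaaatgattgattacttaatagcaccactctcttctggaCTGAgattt

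Both motifs at these places were found in 122 of the 137 copies of the Snord115 array and in 66 of the 70 of the Snord116 array. Gm24966, the best counted copy with 1572 counts over the 6 libraries, differs from the commonest sequence at 10 of 79 bases, counted from 1 at the 5′ end, among them G12A, within the C box of the commonest sequence. Gm25175 differs at 2 bases, C18A and C69T, and Gm25648 at 4, among them A13G.

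How many counts a copy received moved with how particular its sequence was. Read pairs that align to several places are not counted, so a copy identical to others is counted only where the pair reaches into its flanks. In the Snord115 array the 40 copies with a sequence of their own held 82.8% of the 5409 counts, with a median of 40.5 counts a copy. The 97 copies that share a sequence held 930 counts, with a median of 0, and 52 of the 137 copies had no count in any library. In the Snord116 array the 20 copies with a sequence of their own held 76.1% of the 476 counts. A count on these genes can come from the mature snoRNA or from the unspliced host RNA around it, and these libraries do not separate them.

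Summed over its copies, the Snord115 array held 29.5, 27.4 and 25.3 CPM under Control-ASO and 30.8, 19.9 and 17.3 CPM under Snhg11-ASO. The groups overlapped through Snhg11-ASO replicate 1, the highest of the 6. The Snhg11-ASO mean was 82.8% of the Control-ASO mean (p = 0.4, two-sided exact permutation test). The Snord116 array was at 3.09, 2.85 and 1.87 CPM in Control-ASO and at 1.99, 2.03 and 1.49 CPM in Snhg11-ASO. Its groups overlapped through Control-ASO replicate 3, and the Snhg11-ASO mean was 70.6% of the Control-ASO mean (p = 0.3, exact permutation test). Gm22373 was at 1.56, 1.28 and 1.25 CPM in Control-ASO and at 2.18, 0.981 and 1.44 CPM in Snhg11-ASO, or 113% of the Control-ASO mean, with overlapping groups.

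Copy by copy, 21 of the 208 genes passed the filter on low counts. Of these 14 were lower and 7 higher, with log2 fold changes from -0.99 to 1.30 and a median of -0.17, and 0 were called at an adjusted p. At an unadjusted p under 0.05 there was 1, Gm24969, with a log2 fold change of -0.89 (adjusted p = 0.583 in edgeR's quasi-likelihood test). Groups did not overlap for 2, Gm24969 and Gm22496, both lower. Over all genes tested 48.3% were lower, 4.43% were lower at an unadjusted p under 0.05 and 7.7% were lower without overlap. These counts of copies are near the last 2 shares. Gm22496 was at 2.28, 1.90 and 2.14 CPM in Control-ASO and at 1.86, 1.89 and 1.19 CPM in Snhg11-ASO, by a narrow margin in replicates 1 and 2, with a log2 fold change of -0.35 (SE 0.27). Gm24966 was at 8.36, 7.52 and 8.28 CPM in Control-ASO and at 7.66, 6.05 and 5.70 CPM in Snhg11-ASO. Its 2 lowest libraries were Snhg11-ASO replicates 2 and 3, replicate 1 lay among the controls, and the log2 fold change was -0.32 (SE 0.17, adjusted p = 0.682 in edgeR's quasi-likelihood test).

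**Figure D3:**
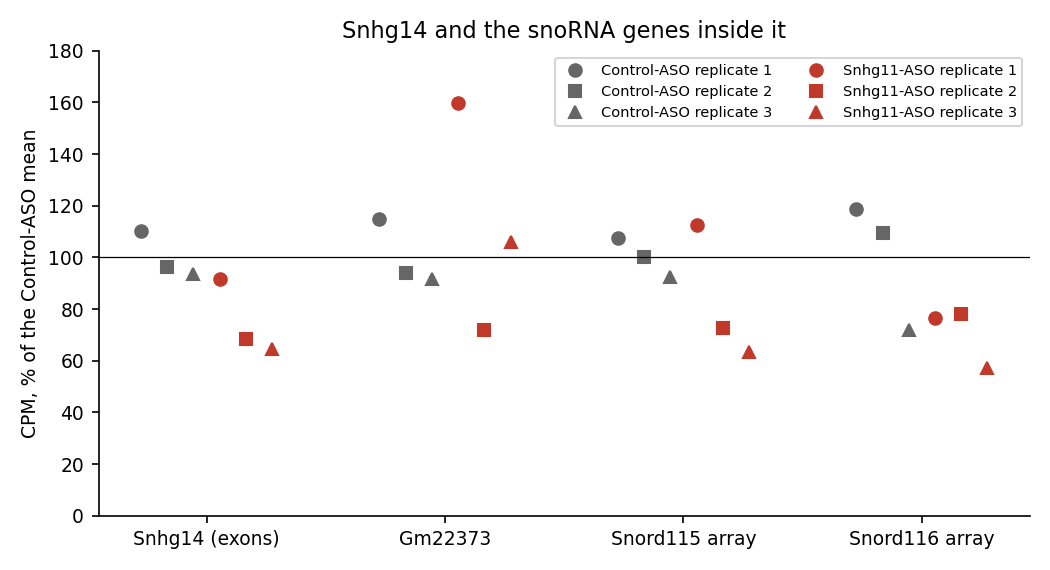
CPM of *Snhg14* exons, of Gm22373 and of the 2 snoRNA arrays inside *Snhg14* (x axis), each as % of its own Control-ASO mean (y axis), with 1 point for each library. The Snhg11-ASO mean was 74.8% for *Snhg14*, 113% for Gm22373, 82.8% for the Snord115 array and 70.6% for the Snord116 array, and only for *Snhg14* exons do the groups not overlap.

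*Gas5*, named for its rise in growth-arrested cells and known as a decoy of the glucocorticoid receptor, was the best expressed small host. It lies on the plus strand of chromosome 1 from 161034422 to 161038539 and holds 10 snoRNA genes. It was counted at 56.1, 80.2 and 65.2 CPM in Control-ASO and at 94.5, 55.03 and 68.1 CPM in Snhg11-ASO. The highest and the lowest library were both Snhg11-ASO, so that the groups overlapped fully. The log2 fold change was 0.11 (SE 0.22, 95% interval -0.41 to 0.63, adjusted p = 0.91 in edgeR's quasi-likelihood test), and its sign turned when replicate 1 of Snhg11-ASO (-0.13) or of Control-ASO (-0.01) was left out.

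*Snhg1*, the classic host of the U22 snoRNA, lies on chromosome 19 from 8723475 to 8726443 and holds 8 snoRNA genes. It was counted at 7.68, 8.03 and 8.10 CPM in Control-ASO and at 15.9, 7.15 and 8.66 CPM in Snhg11-ASO. The Control-ASO libraries were close together, whereas Snhg11-ASO replicate 1 was far above all others and replicate 2 was the lowest. The log2 fold change of 0.41 (SE 0.30, 95% interval -0.29 to 1.11, adjusted p = 0.752 in edgeR's quasi-likelihood test) became -0.0045 without Snhg11-ASO replicate 1. *Slc3a2*, which encodes the heavy chain of amino acid transporters and starts 106 bp away on the opposite strand, was at 59.6, 55.8 and 55.2 CPM in Control-ASO and at 102, 63.3 and 69.1 CPM in Snhg11-ASO. Its groups did not overlap, and its log2 fold change was 0.46 (adjusted p = 0.591 in the same test) and 0.22 without Snhg11-ASO replicate 1.

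*Snhg12*, which holds 4 annotated H/ACA genes at 3 sites and the box C/D gene *Snord99*, was counted at 11.3, 12.9 and 12.3 CPM in Control-ASO and at 18.02, 12.2 and 12.1 CPM in Snhg11-ASO. Apart from Snhg11-ASO replicate 1 the libraries were alike, with a log2 fold change of 0.21 (95% interval -0.23 to 0.66) that became -0.0023 without it. *Snhg5*, host of *Snord50a* and *Snord50b*, was counted at 6.66, 9.27 and 9.08 CPM in Control-ASO and at 12.04, 9.33 and 9.16 CPM in Snhg11-ASO. Its 3 Snhg11-ASO libraries were level with or above its controls, the groups overlapped by a narrow margin, and the log2 fold change was 0.29 (95% interval -0.17 to 0.75), or 0.15 and 0.14 when replicate 1 of Snhg11-ASO or of Control-ASO, in that order, was left out. *Snhg6*, host of *Snord87*, was counted at 7.07, 9.01 and 6.17 CPM in Control-ASO and at 9.89, 8.14 and 8.06 CPM in Snhg11-ASO. Its groups overlapped through Control-ASO replicate 2, and its log2 fold change was 0.23 (95% interval -0.23 to 0.68), or 0.13 without Snhg11-ASO replicate 1.

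*Snhg8*, host of the H/ACA gene *Snora24*, was the steadiest of the 10. It was counted at 10.8, 11.5 and 9.83 CPM in Control-ASO and at 12.9, 10.98 and 10.99 CPM in Snhg11-ASO, with a log2 fold change of 0.12 and the smallest standard error of the 10 (0.14). Only Snhg11-ASO replicate 1 was above the highest control. Leaving it out gave a log2 fold change of 0.04. *Ndst3*, the nearest protein-coding gene upstream on the same strand, encodes a heparan sulfate N-deacetylase and N-sulfotransferase. It was at 33.1, 38.6 and 42.1 CPM in Control-ASO and at 20.5, 21.1 and 31.1 CPM in Snhg11-ASO. Those groups did not overlap, with a log2 fold change of -0.65 (adjusted p = 0.511 in edgeR's quasi-likelihood test).

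*Snhg17* lies next to the targeted gene, 14058 bp from *Snhg11* and on the opposite strand, from 158353700 to 158361580 on chromosome 2. It holds 3 snoRNA genes of 113 to 132 nt. It was counted at 12.1, 11.4 and 9.94 CPM in Control-ASO and at 21.3, 13.0 and 10.6 CPM in Snhg11-ASO. Snhg11-ASO replicates 1 and 2 were above all controls and replicate 3 lay among them. The log2 fold change was 0.42 (SE 0.26, 95% interval -0.20 to 1.05, adjusted p = 0.713 in edgeR's quasi-likelihood test), the highest of the 10, and 0.08 without Snhg11-ASO replicate 1. Next to *Snhg11*, at 22.9% of its Control-ASO mean, this gene was at 134% of its own.

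*Snhg20* holds no annotated snoRNA gene, but does hold a small Cajal body RNA gene (Gm26083) on its strand, a relative that guides modification of spliceosomal RNAs. It was counted at 9.48, 7.97 and 8.40 CPM in Control-ASO and at 9.68, 7.82 and 7.58 CPM in Snhg11-ASO. The groups overlapped over nearly their whole range, with a log2 fold change of -0.04 (95% interval -0.43 to 0.34).

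*Snhg3*, host of the U17 snoRNA, which takes part in ribosomal RNA processing, was the least counted. It was at 2.04, 1.58 and 2.14 CPM in Control-ASO and at 3.07, 1.77 and 1.74 CPM in Snhg11-ASO, from 53 to 117 counts. The groups overlapped, with a log2 fold change of 0.19 (95% interval -0.53 to 0.92). Of its 986 exon bases 294 are shared with other genes on the same strand, among them *Rcc1* and *Snora73a*, where read pairs are not counted, so that its level is uncertain. In part overlapping these, 705 lie antisense to Gm17300, and with the strands counted together *Snhg3* had 0 or 1 count a library.

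*Snora73b*, the intronic U17 gene of *Snhg3*, was the best counted snoRNA gene inside any of the 10 hosts, with 2072 counts. Its sequence shows the box H/ACA layout, with the ACA trinucleotide near the 3′ end in capitals.
Snora73b (chr4:132352322-132352526, minus strand): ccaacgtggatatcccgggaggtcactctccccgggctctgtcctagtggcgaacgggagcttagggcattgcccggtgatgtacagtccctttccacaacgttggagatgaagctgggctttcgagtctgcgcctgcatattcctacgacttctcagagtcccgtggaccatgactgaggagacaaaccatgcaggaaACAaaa
*Snora73b* was counted at 10.6, 11.2 and 8.40 CPM in Control-ASO and at 10.6, 6.22 and 9.94 CPM in Snhg11-ASO. The groups overlapped and the lowest library was Snhg11-ASO replicate 2, with a log2 fold change of -0.18 (95% interval -0.73 to 0.38, adjusted p = 0.865 in edgeR's quasi-likelihood test). It did not follow the library order of *Snhg3*, which was highest in Snhg11-ASO replicate 1. *Snora73b* also lies inside *Rcc1*, which is on the same strand and had 192 to 404 counts a library. From which gene its counts come was not tested.

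The other small hosts could not be set beside their snoRNAs. Of the 32 snoRNA genes inside the 9 small hosts, 29 lie wholly within an annotated host exon, and all 29 had 0 counts in all 6 libraries. Read pairs on exons of 2 genes are left out of the deposited counts, so these zeros do not measure the snoRNAs. *Snord47*, inside *Gas5*, is such a case, whereas *Snord87*, in an intron of *Snhg6*, could be counted and had 1 to 4 counts a library.
Snord47 (chr1:161038082-161038158, plus strand): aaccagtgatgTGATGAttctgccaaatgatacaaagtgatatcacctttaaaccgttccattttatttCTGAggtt
Snord87 (chr1:9942463-9942549, minus strand): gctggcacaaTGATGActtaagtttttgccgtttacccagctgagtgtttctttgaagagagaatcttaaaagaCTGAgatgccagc

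**Figure D4:**
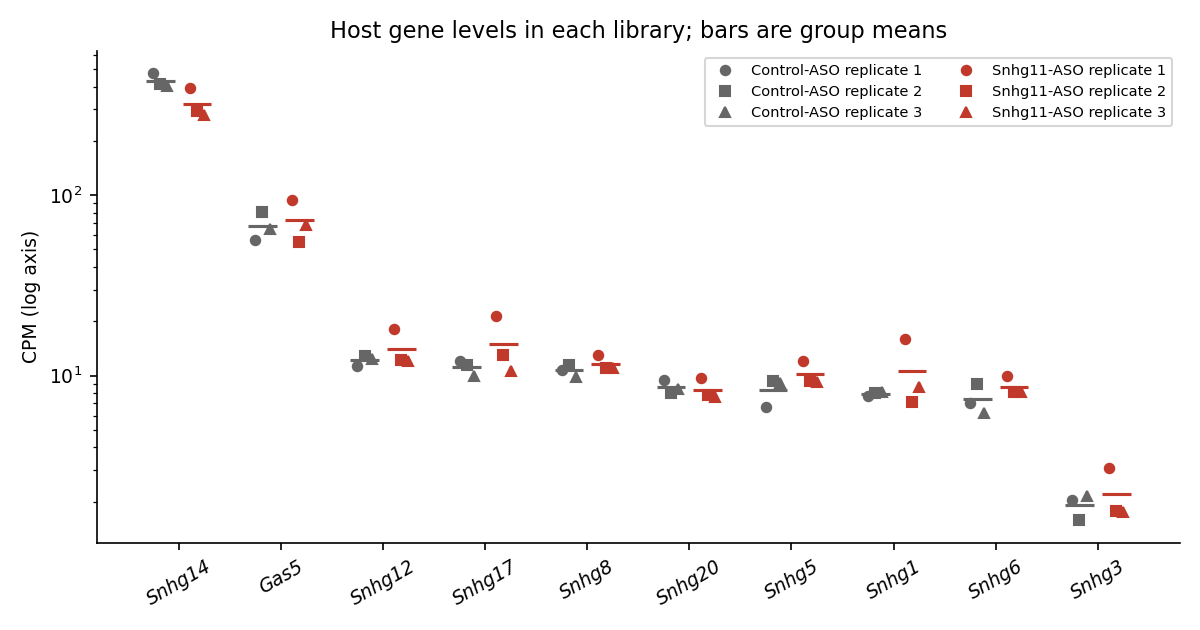
CPM of each host gene (y axis, log scale) in the 6 libraries, Control-ASO in grey and Snhg11-ASO in red, with horizontal bars for group means. *Snhg14* runs from 278 to 475 CPM, *Gas5* from 55.03 to 94.5 CPM, and the 8 other genes from 1.58 to 21.3 CPM.

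Levels were compared between genes only per kb of exon not shared with another gene on the same strand (RPKM). In Control-ASO, *Gas5* (21.7 ± 3.94 RPKM, SD, n = 3), *Snhg14* (16.6 ± 1.51) and *Snhg8* (14.8 ± 1.14) came first, and neighbours in this order overlapped between libraries. *Snhg6* (6.47 ± 1.263), *Snhg12* (6.29 ± 0.428) and *Snhg5* (5.26 ± 0.918) followed without overlap with *Snhg8*, and overlapped among themselves. *Snhg1* (3.38 ± 0.0956), *Snhg20* (3.34 ± 0.303) and *Snhg3* (2.77 ± 0.434) came next, and *Snhg17* (1.67 ± 0.165) was lowest, below every Control-ASO library of *Snhg3*. On this scale *Snhg14* does not stand apart from *Gas5*, although it took far more counts. The exons of all annotated transcripts were merged, and covered 91.3% of the span of *Gas5*, 100% of that of *Snhg8* and 3.91% of that of *Snhg14*. The order of the genes therefore depends on this annotation.

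**Figure D5:**
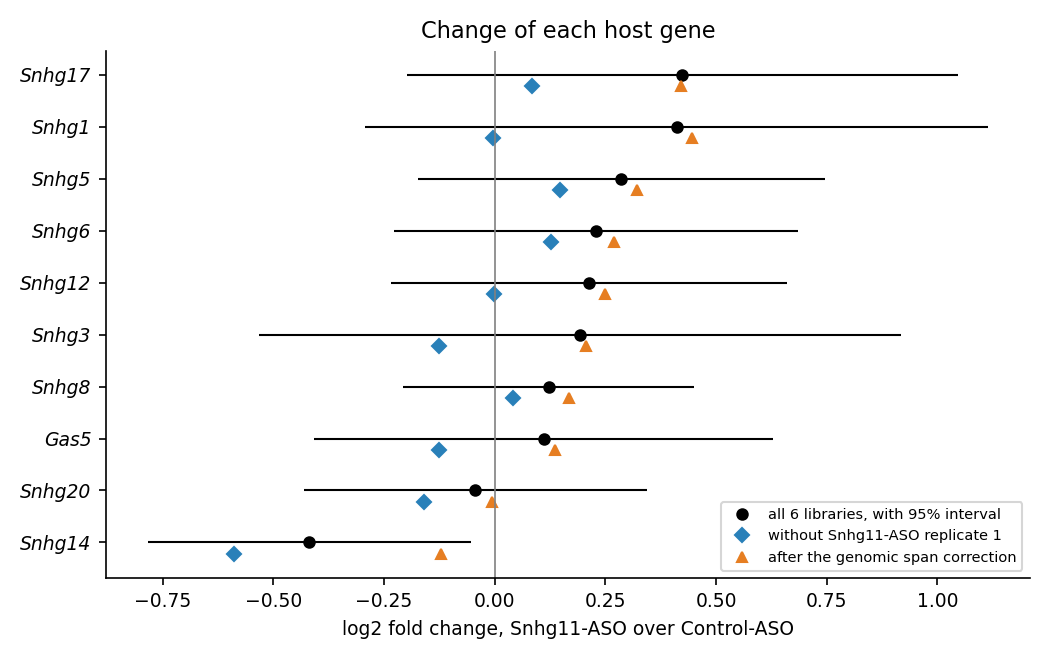
log2 fold change of each host gene, Snhg11-ASO over Control-ASO (x axis), from all 6 libraries with its 95% interval (black), without Snhg11-ASO replicate 1 (blue) and after the genomic span correction (orange). The interval lies below 0 for *Snhg14* only, and without Snhg11-ASO replicate 1 all points but that of *Snhg14* lie between -0.16 and 0.15.

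The genes most like the mean pattern of the 10 over the 6 libraries, among 9808 other genes of at least 10 CPM, were *Uso1*, a tether in vesicle transport to the Golgi, *Zfp777*, a zinc finger gene, and *Pias3*, a SUMO ligase. Their centred log2 CPM differed from the mean of the host genes by 0.0111, 0.0207 and 0.0209 on average. They were picked for this likeness, so that their single high library, Snhg11-ASO replicate 1, follows from the choice.

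A list of 12 further genes that host snoRNAs or belong to the Snhg series gave 9 tested genes, 7 higher and 2 lower, with a median log2 fold change of 0.18. Only *Rian* had an unadjusted p under 0.05, which 8.11% of all genes reached. Over all genes 51.7% were higher, and groups did not overlap in 7.7% that were lower and 7.73% that were higher. *Rian*, a maternally expressed host of a box C/D array in the Dlk1-Dio3 imprinted domain, was at 803, 626 and 631 CPM in Control-ASO and at 452, 428 and 510 CPM in Snhg11-ASO. All Snhg11-ASO libraries were below all controls, and the lowest was replicate 2. Its log2 fold change was -0.57 (SE 0.14, adjusted p = 0.462 in edgeR's quasi-likelihood test, adjusted p = 0.0239 in DESeq2, which called it). It was -0.58 after the genomic span correction and -0.55 without Snhg11-ASO replicate 1. *Meg3*, the long noncoding RNA gene upstream of *Rian*, was at 2308, 1321 and 1565 CPM in Control-ASO and at 1734, 1195 and 1118 CPM in Snhg11-ASO, with overlapping groups and a log2 fold change of -0.36 (SE 0.26), which was -0.58 without Snhg11-ASO replicate 1.

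*Snhg15* was at 2.99, 4.25 and 3.56 CPM in Control-ASO and at 10.9, 4.31 and 4.76 CPM in Snhg11-ASO. Its groups did not overlap, replicates 2 and 3 by a narrow margin, and the log2 fold change of 0.88 (adjusted p = 0.621 in edgeR's quasi-likelihood test) was 0.33 without Snhg11-ASO replicate 1. *Zfas1*, a host of box C/D snoRNAs, was at 10.7, 13.0 and 11.9 CPM in Control-ASO and at 21.6, 12.4 and 15.6 CPM in Snhg11-ASO. Its groups overlapped, with a log2 fold change of 0.48 (adjusted p = 0.638 in the same test) and of 0.24 without Snhg11-ASO replicate 1.

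Genes for the proteins that snoRNAs work with did not pass the test. Of 8 core proteins, the box C/D proteins *Fbl*, *Nop56*, *Nop58* and *Snu13* and the H/ACA proteins *Dkc1*, *Gar1*, *Nhp2* and *Nop10*, 6 were higher and 2 lower, with a median log2 fold change of 0.01, 0 at an unadjusted p under 0.05 and 0 with groups that did not overlap. *Fbl*, the methyltransferase, had the highest value at 0.19 (SE 0.23) and *Nop10* the lowest at -0.14 (SE 0.18). Without Snhg11-ASO replicate 1 these were -0.04 and -0.03. Of 12 assembly factors 6 were higher and 6 lower, with a median of 0.01 and 0 at an unadjusted p under 0.05. Groups did not overlap for *Naf1*, an assembly factor of H/ACA particles (log2 fold change -0.33), and for *Nufip1* (0.24), *Pih1d1* (0.19) and *Nolc1* (0.23), which take part in particle assembly. Over all genes 7.7% were lower and 7.73% higher without overlap. Without Snhg11-ASO replicate 1 the log2 fold change was -0.33 for *Naf1*, 0.13 for *Nufip1*, 0.20 for *Pih1d1* and 0.11 for *Nolc1*.

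Of 17 genes of nonsense-mediated decay 13 were higher and 4 lower, with a median log2 fold change of 0.17 against 0.01 over all genes, and 0 had an unadjusted p under 0.05. Groups did not overlap, and were higher, for *Smg5* (log2 fold change 0.36, adjusted p = 0.618 in edgeR's quasi-likelihood test), *Etf1* (0.22) and *Upf2* (0.17). For comparison, 7.73% of all genes were higher without overlap. *Smg5* was at 62.3, 66.8 and 67.6 CPM in Control-ASO and at 105, 71.9 and 74.9 CPM in Snhg11-ASO, with Snhg11-ASO replicate 1 again far above the rest. *Upf1*, the central helicase, had overlapping groups and a log2 fold change of 0.27 (SE 0.20). Without Snhg11-ASO replicate 1 the log2 fold change was 0.16 for *Smg5*, 0.08 for *Etf1*, 0.16 for *Upf2* and 0.02 for *Upf1*. Some of the 13 higher genes, not named here, were then lower. The count of higher genes in this list thus rested in part on that library, and so did the sizes of most changes named.

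Other genes with a snoRNA gene inside them were described as a group only, beside 51.7% of all genes higher, and 4.43% lower and 3.68% higher at an unadjusted p under 0.05. Only the members and *Snhg11* were left out of this group, so it can share genes with the list of further hosts above. Of 237 protein-coding hosts tested, 143 were higher and 94 lower, with a median log2 fold change of 0.03, 17 lower and 6 higher at an unadjusted p under 0.05. Of 32 hosts tested that are not protein-coding, 21 were higher and 11 lower, with a median of 0.09, 3 lower and 1 higher at an unadjusted p under 0.05.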

How the data were processed

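The authors deposited STAR read-pair counts per gene for 6 dorsal hippocampus libraries (TruSeq Stranded Total RNA, ribo-depleted, paired 50-base reads), aligned to mm10 (GRCm38) with STAR 2.5.2a per the submitters' processing notes. These counts are not normalized. The study's methods name another counter and state that an Snhg11-ASO sample, not identified there, was removed. All 6 were kept. The annotation release was not given in the sources used here, and GENCODE M21 matched 55141 of 55401 identifiers. Reverse-strand counts were used, which held 96.2% to 96.8% of stranded counts, and the 4 summary lines that name no gene were left out.

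Genes passing filterByExpr (minimum count 10) were scaled with TMM factors (0.982 to 1.02) and compared by edgeR's quasi-likelihood test. Adjusted p-values (Benjamini-Hochberg) cover 19969 genes, with a threshold of 0.05 (R 4.3.3, edgeR 4.0.16, limma 3.58.1). The SE is the fold change over the square root of F. The common biological coefficient of variation was 0.266. On simulated counts for this comparison (19657 genes), 85% of 200 genes changed by a log2 fold change of 2 were recovered, with 12 false calls. The host genes had log2 fold changes of only -0.42 to 0.42, and the simulated counts held no outlying library. The recovered share therefore does not apply to changes of the size seen here. In the data *Snhg11*, at a log2 fold change of -2.13, was not called by edgeR. Libraries are separate samples by their titles. The study's methods give 3 injected mice per group for the dissection whose RNA was also sequenced. The titles do not name the mouse of each library, and p-values measure the spread between these samples.

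Replicate numbers 1, 2 and 3 occur in both groups. Deviations of same-numbered libraries had correlations of 0.297, 0.179 and 0.103. Each exceeds 0.1, and the numbers were used to pair the libraries only in the alternatives with a replicate block. The main tests and the permutation tests did not use this pairing. It comes from the values, not from the labels, and only for number 1 did the libraries correlate best with their own number. Alternatives were DESeq2 1.42.0 (all libraries, and without each Snhg11-ASO library), other scaling factors, other count filters, counts of both strands, the replicate block, a loess correction for genomic span (with and without the block) and leaving out each library. The members, gene lists and tests were chosen with earlier results of these data known. Genes named are the members, *Snhg11*, snoRNA genes inside members, neighbouring protein-coding genes, listed genes with an unadjusted p under 0.05 or groups that did not overlap, up to 3 others of a list, and the 3 genes most like the members. Of the *Snhg14* locus list all tested genes are named. *Snhg4*, *Snhg7* and *Ipw* of the lists were not matched. A result for 1 listed gene is not reported here.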

Additional observations from a re-analysis of the deposited data

How the results depend on the processing

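Over 18 alternatives the sign of *Snhg5*, *Snhg6*, *Snhg8*, *Snhg14* and *Snhg17* held. Signs turned without Snhg11-ASO replicate 1 for *Gas5* (edgeR -0.13, DESeq2 -0.13), *Snhg1* (-0.0045, -0.0086), *Snhg3* (-0.13, -0.13) and *Snhg12* (-0.0023, -0.0065), and without Control-ASO replicate 1 for *Gas5* (-0.0141) and *Snhg20* (0.0205). *Snhg20* also turned without Snhg11-ASO replicate 2 (0.0012, DESeq2 0.0019) and replicate 3 (0.0216, DESeq2 0.0243), all values close to 0. The count of host genes with an adjusted p under 0.05 was 0, and 1 (*Snhg14*) in DESeq2 without Snhg11-ASO replicate 1, with a range of 0 to 1 over left-out libraries. Over left-out libraries the count of higher host genes ran from 4 to 9, that of higher host genes at an unadjusted p under 0.05 from 0 to 1, that of lower ones from 0 to 1, and the log2 fold changes from -0.59 to -0.32 for *Snhg14*, -0.13 to 0.27 for *Gas5*, 0.14 to 0.37 for *Snhg5*, 0.11 to 0.39 for *Snhg6*, 0.04 to 0.18 for *Snhg8*, -0.0086 to 0.63 for *Snhg1*, 0.08 to 0.62 for *Snhg17*, -0.13 to 0.34 for *Snhg3* (edgeR's highest 0.33), -0.0065 to 0.31 for *Snhg12*, -0.16 to 0.0243 for *Snhg20* and -2.57 to -1.83 for *Snhg11*. The 1 higher host gene was *Snhg17* without Snhg11-ASO replicate 3 and *Snhg1* in DESeq2 without Snhg11-ASO replicate 2. Over all genes edgeR called 0, and 1619 at an unadjusted p under 0.05, DESeq2 called 258, and 347, 275 and 223 without Snhg11-ASO replicates 1, 2 and 3. Left-out libraries gave 0 to 347 over both tools, with 2 in edgeR without Snhg11-ASO replicate 1. The adjusted p of *Snhg11* was 0.395 in edgeR and 6.2e-05 in DESeq2. With the replicate block *Snhg14* gave -0.43 (adjusted p = 0.478, edgeR's quasi-likelihood test), and the pairing changed no call at an adjusted p. With the span correction the count of lower host genes at an unadjusted p under 0.05 was 0, with and without the block. The smallest adjusted p over all genes was 0.237, and the causes of these differences were not tested.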

Other observations

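Some copies of the Snord115 array inside *Snhg14* were counted in some libraries and not at all in others. This was noticed after the values were seen and was not tested. Of 45 copies with at least 20 counts over the 6 libraries, 37 were counted in all 6, and 5 were at 0 in 2 or more. Gm26488, shown above with its sequence, had 21 and 19 counts in Control-ASO replicates 1 and 2 and 0 in the other 4 libraries. Gm26230 had 16 and 10 counts and Gm25089 had 9 and 11 counts in the same libraries, with 0 in the other 4. Gm25121 had 16 and 21 counts there, 3 in Snhg11-ASO replicate 1 and 0 in the rest.

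Gm23356 went the other way, with 0 counts in Control-ASO replicates 1 and 2, 5 in Control-ASO replicate 3, and 12, 7 and 2 in Snhg11-ASO replicates 1, 2 and 3. It has the commonest sequence of the array, which 33 copies share. Gm26488 differs from that sequence by A10G and G36T, positions counted from 1 at the 5′ end. The array as a whole did not show this split, with 867, 923 and 853 counts under Control-ASO and 1176, 833 and 757 under Snhg11-ASO. The libraries that counted Gm26488 do not follow the treatment, and a fold change of such a copy between the groups is therefore carried by 2 of the 3 controls. The mice came from a mixed background, and whether they differ in the copies of this array was not tested. The counts of copies given here cover the Snord115 array only. In the Snord116 array Gm26365 had 11 and 7 counts in Control-ASO replicates 1 and 2 and 0 in every other library.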
